A study of Mus musculus with 8 samples.

Results

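The genes of MHC class II antigen presentation were followed in B16F1 melanoma tumours grown in mice with or without TNF receptors, before and after irradiation. The set of 8 listed genes held H2-Aa, H2-Ab1, H2-Eb1, Cd74, H2-DMa, H2-DMb1, Ctss and Ciita. A gene entered when the array annotation gave it a probe set of its own, which left 7 of the 18193 genes on the array with such a probe set. H2-DMb1 was left out because both probe sets that name it also name its neighbour H2-DMb2. Each gene is represented by its brightest probe set, and 6 of the 7 were bright enough to be tested. Ciita was not.

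MHC class II molecules are pairs of an alpha and a beta chain that carry peptides from the endocytic pathway to the cell surface, where CD4 T cells read them. The invariant chain Cd74 fills the groove during assembly, the protease cathepsin S (Ctss) trims it away, and H2-DM exchanges the remaining fragment for peptide. The co-activator Ciita, itself inducible by interferon gamma, switches the chain genes, Cd74 and H2-DM on together. In tumours, class II is chiefly found on macrophages, dendritic cells and B cells.

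B16F1 cells, a C57BL/6 mouse melanoma line, were injected under the skin of the right hind limb. The wild-type hosts (WT) were C57BL/6-NCr mice. The TNFR KO hosts were bred from B6;129S-Tnfrsf1a[tm1Imx] Tnfrsf1b[tm1Imx]/J mice, labelled TNFR 1, 2 -/-, which lack both TNF receptors in all host tissue, while the tumour cells keep their own receptor genes. Hosts were 8 to 12 weeks old at the start. Untreated tumours were compared with tumours given a single dose of 20 Gy of X-rays to the limb and excised 5 h later. Each host thus had an untreated and an irradiated group. The labels give 5 to 7 injected mice and do not say how many tumours entered each pool. RNA of the whole tumours of a group was combined into 1 pool, and each of the 4 pools was read on 2 Affymetrix arrays. The replicates are therefore technical, and p-values from the 8 arrays measure only the spread between duplicate arrays, not between animals. The sample labels give C57BL/6 as the strain of both hosts, whereas the stock name of the KO line denotes a B6;129S background; receptor loss and other differences between the stocks cannot be told apart.

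Values are MAS5 signals on a linear scale, given for the arrays of replicate 1 and 2 in turn. Differences are on the log2(signal + 16) scale with the standard error of limma, which models all tested genes together. A single-pool difference was called when its Benjamini-Hochberg adjusted p was under 0.05 and it reached 2-fold. Across the whole array, duplicates correlated at 0.982 to 0.986 and different pools at 0.961 to 0.978 (log2 signals across genes, which are not independent replicates). The poly-A spike-in controls averaged 8367 on the WT arrays and 15.7 on the TNFR KO arrays, and host and RNA preparation therefore cannot be told apart wherever the hosts are compared. Within WT, the irradiated arrays also read higher than the untreated ones for these spike-ins (10695 and 10828 against 5965 and 5982) and for the hybridisation controls (7816 and 8177 against 6281 and 6513). In TNFR KO tumours the hybridisation controls were likewise higher after irradiation (7367 and 7487 against 6615 and 6637), and so was 18S ribosomal RNA (932 and 956 against 547 and 510.5), which read 284 to 345 on the WT arrays. The part of preparation in the results below was not tested. Tnfrsf1a read between 2653 and 4340 on all 8 arrays, and Tnfrsf1b between 157.5 and 451 on the WT and between 108 and 147 on the TNFR KO arrays. Where these probe sets lie relative to the 2 targeted alleles is not given in the sources used here, so they do not check the genotype.

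The alpha chain gene H2-Aa and the beta chain gene H2-Ab1 encode the I-A molecule, and H2-Eb1 encodes the beta chain of I-E. All 3 lie near each other on chromosome 17 (GRCm38.p6), H2-Aa at 34282744 to 34287823, H2-Ab1 at 34263227 to 34269418 and H2-Eb1 at 34305867 to 34316674. Class II promoters are known for an X box, bound by the RFX factors with an X2 box bound by Creb1 beside it, and a Y box bound by NF-Y, on which Ciita assembles. To show this layout, the 250 bases before the start of H2-Aa and H2-Eb1 are printed 5′ to 3′ on the gene's strand, with those of Ctss for contrast, from RefSeq (GRCm38.p6). Such windows were searched for 5 of the 8 listed genes. H2-Ab1, Ciita and Cd74 were not searched, so whether they carry these boxes was not tested. Capitals mark matches to the Y box core CCAAT, the X2 box TGACGTCA, the X box core AACNGATG and the interferon-stimulated response element (ISRE), searched on both strands.
H2-Aa, chr17:34287824-34288073, minus strand: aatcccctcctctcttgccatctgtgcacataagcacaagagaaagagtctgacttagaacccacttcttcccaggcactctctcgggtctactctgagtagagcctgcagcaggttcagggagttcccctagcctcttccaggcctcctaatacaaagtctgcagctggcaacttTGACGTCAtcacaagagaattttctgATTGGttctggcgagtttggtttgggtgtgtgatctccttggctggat
H2-Eb1, chr17:34305617-34305866, plus strand: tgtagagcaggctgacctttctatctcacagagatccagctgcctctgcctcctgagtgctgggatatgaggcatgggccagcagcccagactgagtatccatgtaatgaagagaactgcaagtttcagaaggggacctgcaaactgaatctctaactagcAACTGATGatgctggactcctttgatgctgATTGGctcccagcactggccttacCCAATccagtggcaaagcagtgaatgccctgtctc
Ctss, chr3:95526536-95526785, plus strand: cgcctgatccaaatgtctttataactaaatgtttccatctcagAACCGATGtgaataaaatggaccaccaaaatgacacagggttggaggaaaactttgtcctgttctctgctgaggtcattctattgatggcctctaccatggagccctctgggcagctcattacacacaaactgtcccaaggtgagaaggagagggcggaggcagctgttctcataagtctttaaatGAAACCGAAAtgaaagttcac

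In the H2-Aa window the X2 box match lay 74 to 67 bases before the start, followed by a Y box match on the opposite strand 48 to 44 bases before it. H2-Eb1 had the X box core at 89 to 82, a Y box match on the opposite strand at 59 to 55 and a further one on the same strand at 35 to 31. H2-DMb1, which was not measured on its own, had the same order, with the X box core at 92 to 85 and the Y box at 61 to 57. Ctss held no Y box match; it had an X box core at 207 to 200 and the response element at 21 to 12. H2-DMa had 2 windows, with no match in the first and 1 Y box match in the second. Both lie inside its annotated span, so the bases before the first base of that span were not searched. Of all 32851 promoter windows of this length, 33.8% held a Y box match, 1.55% the X2 box, 1.98% the X box core and 2.98% the response element, and 1.21% held a Y box together with an X box core or X2 box. A match describes the letters and does not show a bound site.

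All 6 tested members were higher in the irradiated WT pool than in the other 3 pools. The clearest were H2-Eb1 and H2-DMa, at about 3.57 and 3.48 times their untreated WT signal after irradiation. In TNFR KO hosts no member changed by 2-fold after the same dose. The members that rose included chain genes, the invariant chain, the peptide exchange factor and the protease.

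H2-Aa read 1613 and 1509 in WT untreated, 3820 and 3534 in WT irradiated, 1325 and 1373 in TNFR KO untreated and 1286 and 1305 in TNFR KO irradiated tumours. Its irradiated WT arrays were at least 2.19 times any other array, and the other 6 arrays stayed between 1286 and 1613. H2-Ab1 read 622 and 628 in WT untreated, 1536 and 1296 in WT irradiated, 442.5 and 475 in TNFR KO untreated and 468 and 539 in TNFR KO irradiated tumours. The irradiated WT arrays were at least 2.06 times any other array, and the untreated WT arrays lay above all 4 TNFR KO arrays. H2-Eb1 read 523 and 620.3 in WT untreated, 2099 and 1978 in WT irradiated, 642 and 587 in TNFR KO untreated and 574 and 590.4 in TNFR KO irradiated tumours. Its 3 lower pools overlapped, and the irradiated WT arrays were at least 3.08 times all of them.

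Cd74, the invariant chain, lies on chromosome 18, apart from the other members. Its signal was 1354 and 1289 in WT untreated, 4182 and 3801 in WT irradiated, 1283 and 1246 in TNFR KO untreated and 1030.3 and 1024 in TNFR KO irradiated tumours. The gap between the lowest irradiated WT array and the highest other array was 2.81 times. H2-DMa, the alpha chain of the peptide exchange factor (chromosome 17, 34119693 to 34139101), read 213 and 225 in WT untreated, 787 and 737.5 in WT irradiated, 191 and 246 in TNFR KO untreated and 185 and 179 in TNFR KO irradiated tumours. The gap was 3.0 times. Ctss, cathepsin S (chromosome 3, 95526786 to 95556405), read 1703 and 1832 in WT untreated, 3852 and 4134 in WT irradiated, 2643 and 2190 in TNFR KO untreated and 1870.1 and 1623 in TNFR KO irradiated tumours. Here the gap was the smallest of the 6 tested members, 1.46 times, and the untreated TNFR KO arrays were the next highest.

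**Figure D1:**
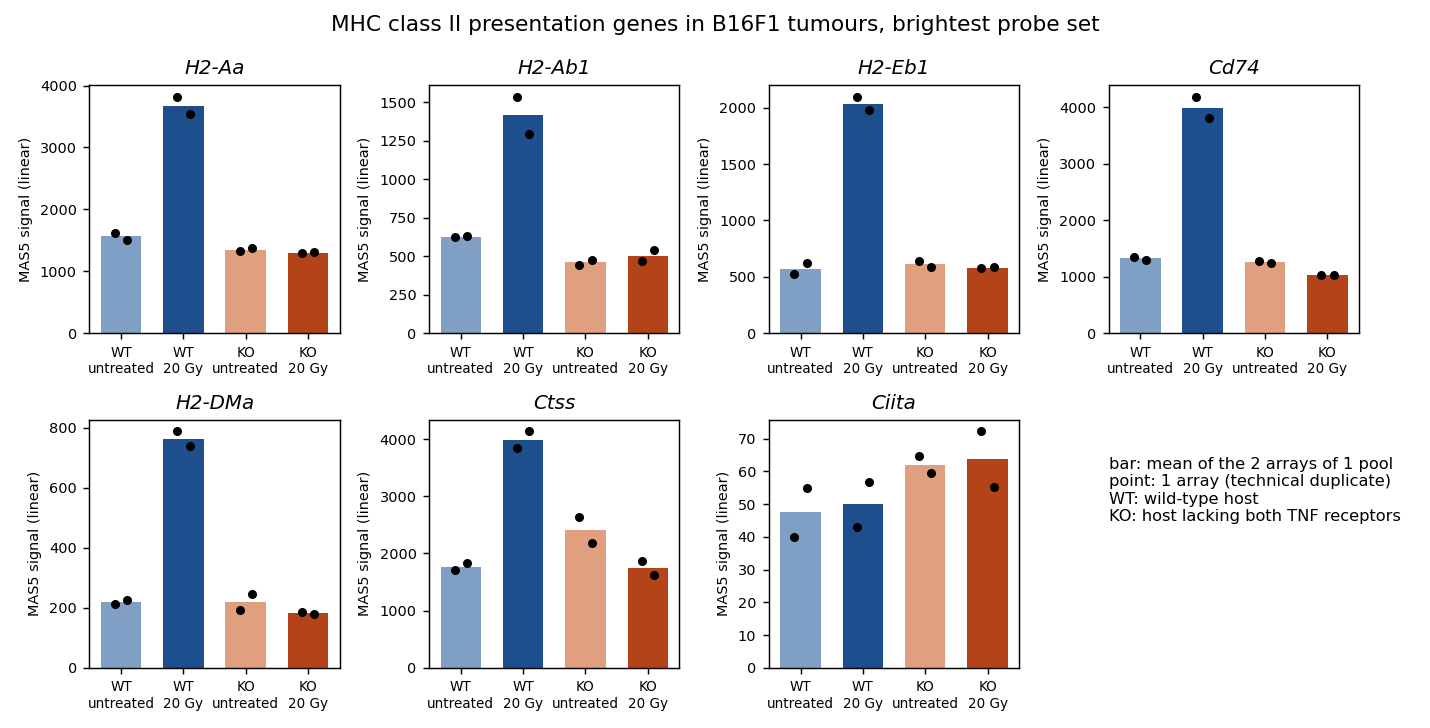
MAS5 signal (linear scale, from 0) of the 7 class II presentation genes in the 4 pools; bars are the mean of the 2 arrays of a pool and points the arrays. In the first 6 genes the irradiated WT pool is the highest, while Ciita stays between 40.0 and 72.2 in all pools.

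Both irradiated WT arrays were above the other 6 arrays for all 6 tested members, against 9.12% of the 11345 genes tested. For 5 of the 6 the distance was at least 1.5 times, against 0.996% of tested genes.

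What 20 Gy changed in WT hosts was tested against the spread of duplicate arrays. In limma, 6 of 6 tested members rose (2.25% of all tested genes were called higher), with a median log2 difference of 1.40 beside -0.02 over all tested genes. The differences were 1.81 ± 0.10 for H2-Eb1 (adjusted p = 0.000435), 1.73 ± 0.12 for H2-DMa (adjusted p = 0.000834), 1.58 ± 0.07 for Cd74 (adjusted p = 0.00027), 1.23 ± 0.07 for H2-Aa, 1.17 ± 0.12 for Ctss and 1.15 ± 0.11 for H2-Ab1. The calls on H2-Aa, Ctss and H2-Ab1 ended when arrays were centred on their median signal (0.97, 0.91 and 0.90), a scaling that moved the median of all tested genes from -0.02 to -0.28.

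In TNFR KO hosts the same dose called 0 of 6 members (1.37% of all tested genes were called in either direction). Without the 2-fold threshold 2 of the 6 passed the adjusted p in limma (23.8% of all tested genes), and 2 had an unadjusted p under 0.05 (39.0% of all tested genes), shares near the background. Those 2 were Ctss, at -0.46 ± 0.12 (adjusted p = 0.0381), and Cd74, at -0.30 ± 0.07 (adjusted p = 0.029). H2-DMa differed by -0.23 ± 0.12, H2-Eb1 by -0.08 ± 0.10, H2-Aa by -0.06 ± 0.07 and H2-Ab1 by 0.13 ± 0.11. The median was -0.15 beside -0.02 over all tested genes.

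Subtracting the WT radiation effect from that of TNFR KO hosts gave a difference that was called for 6 of 6 members, all below 0 (2.05% of all tested genes were called so). It was -1.96 ± 0.16 for H2-DMa (adjusted p = 0.00384), -1.89 ± 0.14 for H2-Eb1 (adjusted p = 0.00267), -1.88 ± 0.10 for Cd74 (adjusted p = 0.00172), -1.63 ± 0.17 for Ctss, -1.29 ± 0.10 for H2-Aa and -1.03 ± 0.15 for H2-Ab1 (adjusted p = 0.0185). H2-Ab1 lost its call when 1 array was left out, namely WT irradiated replicate 1 (-0.91), WT untreated replicate 1 (-1.02), WT untreated replicate 2 (-1.03), TNFR KO irradiated replicate 1 (-0.93), TNFR KO untreated replicate 1 (-1.08) and, in turn, TNFR KO untreated replicate 2 (-0.98). It also lost it with no filter on dim genes, with a pseudocount of 64 (-0.98) and with arrays centred on the median (-0.80). The other 5 members kept their calls in each of these settings in which they were tested.

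The 2 hosts were then compared at each treatment; these contrasts share their pools with the radiation contrasts and rest on the same signals. Between the untreated pools 0 of 6 members were called (8.31% of all tested genes were called in either direction), with a median of -0.04 beside 0.08 over all tested genes. Without the 2-fold threshold 3 of 6 passed the adjusted p in limma (50.2% of all tested genes), and 3 had an unadjusted p under 0.05 (56.8% of all tested genes), shares near the background. They were H2-Ab1 at -0.43 ± 0.11, H2-Aa at -0.21 ± 0.07 and Ctss at 0.44 ± 0.12. Cd74 (-0.06 ± 0.07), H2-DMa (-0.02 ± 0.12) and H2-Eb1 (0.11 ± 0.10) differed by about their standard error or less.

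Between the irradiated pools 6 of 6 members were lower in TNFR KO hosts (7.43% of all tested genes were called lower), with a median of -1.64 beside 0.06 over all tested genes. H2-DMa was at -1.97 ± 0.12 (adjusted p = 0.000129), Cd74 at -1.94 ± 0.07 (adjusted p = 5.61e-05) and H2-Eb1 at -1.78 ± 0.10 (adjusted p = 0.00011). H2-Aa was at -1.49 ± 0.07, H2-Ab1 at -1.46 ± 0.11 and Ctss at -1.19 ± 0.12. As plain signal ratios, irradiated WT tumours read 4.18 times irradiated TNFR KO tumours for H2-DMa and 2.29 times for Ctss, the ends of the range.

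**Figure D2:**
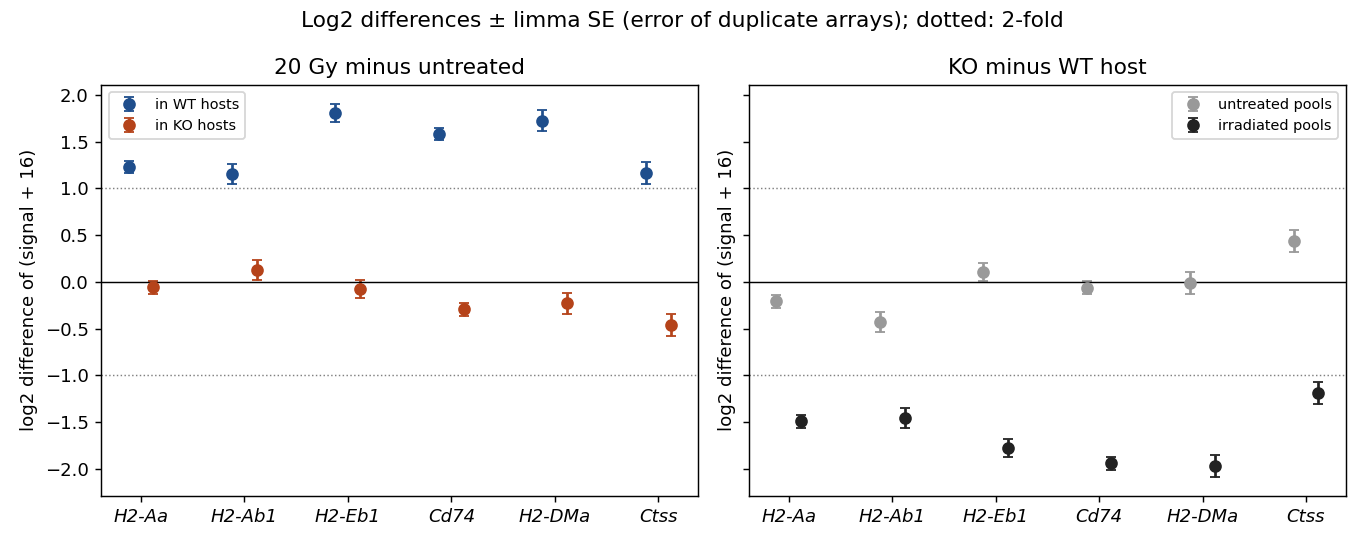
Log2 differences of (signal + 16) for the 6 tested members with limma's standard error from duplicate arrays; the left panel shows 20 Gy minus untreated in each host, the right panel TNFR KO minus WT at each treatment, and dotted lines mark 2-fold. In WT hosts all 6 lie between 1.15 and 1.81, in TNFR KO hosts between -0.46 and 0.13.

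Averaging over treatments or hosts, with the pool as the unit, gave weaker results. In the additive fit on the 4 pool means, 4 of 6 members were lower in TNFR KO hosts (18.9% of all tested genes were called lower): H2-Ab1 at -0.95 ± 0.23 (adjusted p = 0.0104), H2-Aa at -0.85 ± 0.25, Cd74 at -1.0 ± 0.33 and H2-DMa at -0.99 ± 0.34. H2-Eb1 (-0.84 ± 0.33, adjusted p = 0.079) and Ctss (-0.37 ± 0.30, adjusted p = 0.354) did not pass. The residual of that fit is the difference between the hosts' radiation effects, which in these genes was large. It holds 1 degree of freedom, against 9.52 that limma drew from all tested genes. The printed errors and the 4 calls therefore rest mostly on the spread of other genes. The count fell to 0 or 1 when any 1 of the 8 arrays was left out. It was 1 without TNFR KO untreated replicate 2, TNFR KO irradiated replicate 1 or WT irradiated replicate 2, and 0 without each of the other 5. Radiation over both hosts called 0 of 6 (1.9% of all tested genes were called in either direction), with log2 differences of 0.35 to 0.87 and 3 members at an unadjusted p under 0.05 in limma (16.7% of all tested genes); limma-trend called 5 (6.88% of all tested genes).

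The other probe sets served as a check. Of 15 probe sets naming 1 member alone, 11 were bright enough to be tested. On all 11 the irradiated WT arrays were the highest, by 1.46 to 3.44 times. The other 3 bright probe sets of H2-Aa differed by 1.85, 1.75 and 1.41 after irradiation in WT and by -0.50, -0.20 and 0.39 in TNFR KO hosts. Those of H2-Ab1 differed by 1.32 and 1.30 in WT and by -0.07 and 0.42 in TNFR KO hosts. The brightest H2-Aa probe set, used above, gave the smallest WT rise of the 4. The probe sets shared by H2-DMb1 and H2-DMb2, the beta chains of the exchange factor, read 312.5 and 296 in WT untreated, 521 and 474 in WT irradiated, 306 and 295 in TNFR KO untreated and 313.5 and 286 in TNFR KO irradiated tumours on the brighter one. On the dimmer one the values were 223 and 236, 385 and 348, 200.5 and 147, and 221 and 211. The direction was that of the members, at 0.68 and 0.64 in WT, without reaching 2-fold. The probe set of H2-DMb2 alone varied too much between duplicates to show a difference (71.5 and 148.9 in WT untreated, 136.5 and 21.9 in TNFR KO irradiated tumours).

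**Figure D3:**
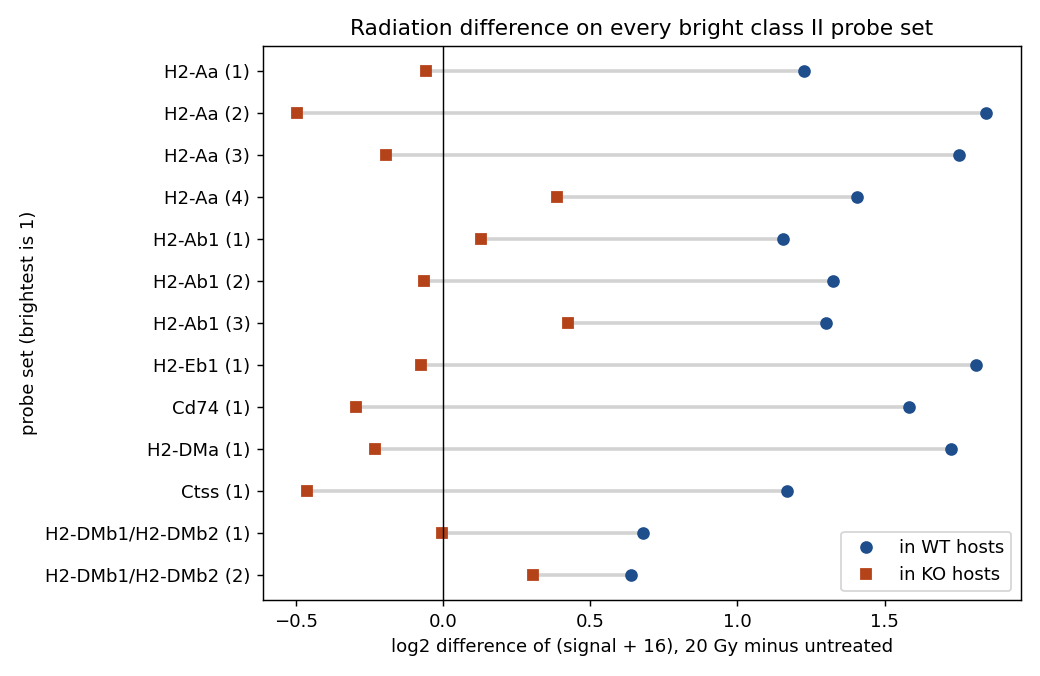
Log2 difference of (signal + 16), 20 Gy minus untreated, on each bright class II probe set (brightest of a gene numbered 1) in WT (circles) and TNFR KO hosts (squares), joined by a line. Every circle of the members lies at 1.15 or above and every square at 0.42 or below.

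Ciita was dim on every array, at 40.0 and 55 in WT untreated, 43.0 and 56.8 in WT irradiated, 64.7 and 59.5 in TNFR KO untreated and 72.2 and 55.3 in TNFR KO irradiated tumours. Its irradiated and untreated WT arrays overlapped. Its mean log2 signal of 6.15 was below the level for testing (6.41, a signal of 68.8). With no filter on dim genes it entered the fit, differing by 0.06 after irradiation in WT hosts and by 0.02 in TNFR KO hosts on the log2(signal + 16) scale, which understates changes of dim genes, and was called in no comparison.

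The listed factors that bind class II promoters or act on them as co-activators were all bright enough to test. Of 10 promoter genes tested, 0 were called after irradiation in WT hosts (median -0.04, 3 at an unadjusted p under 0.05 in limma) and 0 in TNFR KO hosts (median -0.16, 6 at an unadjusted p under 0.05). Of all tested genes, 39.9% in WT and 39.0% in TNFR KO hosts had an unadjusted p under 0.05, the background for this and the following lists. Rfx5, a subunit of the X box complex, read 652 and 701 as WT and 604 and 664 as TNFR KO pool means, each untreated then irradiated. Between hosts 2 of 10 were lower in TNFR KO at each treatment (6.25% of all tested genes untreated and 7.43% irradiated). Creb1, which binds the X2 box, was at -1.34 ± 0.07 untreated and -1.81 ± 0.07 irradiated. The acetyltransferase gene Kat2b was at -1.11 ± 0.07 and -1.16 ± 0.07.

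In interferon gamma signalling, 0 of 8 tested genes were called after irradiation in WT (2 at an unadjusted p under 0.05 in limma) and 0 in TNFR KO hosts (3 at an unadjusted p under 0.05). Irf1, a transcription factor induced by interferon, had pool means of 1118 and 1323 in WT and 1368 and 1106 in TNFR KO, each untreated then irradiated. The kinase gene Jak1 was lower in irradiated TNFR KO tumours (-1.15 ± 0.08). Ifng itself read 35.5 or less on all 8 arrays and was too dim to test.

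Of the other genes of the class II pathway, 5 were tested, of which 0 were called after irradiation in WT hosts (2 at an unadjusted p under 0.05 in limma) and 0 in TNFR KO hosts (3 at an unadjusted p under 0.05). The thiol reductase Ifi30, which unfolds antigens, had pool means of 6211 and 6729 in WT and 7380 and 8510 in TNFR KO, each untreated then irradiated. The protease Lgmn read 2499 and 3015 in WT and 5013 and 4216 in TNFR KO hosts. The other 5 genes, H2-Oa, H2-Ob, H2-Eb2, H2-Ea and Marchf1, were too dim to test. H2-Ea encodes the alpha chain of I-E, which C57BL/6 mice do not transcribe, and read between 17.3 and 55.7.

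Among 10 genes of MHC class I presentation, 4 rose after irradiation in WT hosts (2.25% of all tested genes) and 1 in TNFR KO hosts (0.881%), with medians of 0.69 (WT) and 0.08 (TNFR KO). Nlrc5, the class I counterpart of Ciita, read 338 and 947 in WT (1.44 ± 0.14, adjusted p = 0.00254) and 469 and 736 in TNFR KO hosts (0.64 ± 0.14, below 2-fold), untreated and irradiated. The immunoproteasome genes Psmb8 and Psmb9 rose by 1.13 ± 0.07 and 1.12 ± 0.07 in WT; in TNFR KO hosts their differences were 0.21 ± 0.07 and 0.45 ± 0.07. Tap1, a peptide transporter chosen after its values were seen, rose in both hosts, by 1.45 ± 0.07 and 1.12 ± 0.07. TNFR KO minus WT radiation effects were below 0 for all 10 class I genes (median -0.61), with 9 at an unadjusted p under 0.05 in limma (28.8% of all tested genes) and 1, Tapbp, called (2.05%). The class I and class II lists were not tested against each other.

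Whole tumours hold many cell types, and more cells of a type cannot be told apart from more RNA per cell. Macrophage markers also moved with host and dose. TNFR KO minus WT radiation effects were called below 0 for 11 of 15 (2.05% of all tested genes), with a median of -1.37 beside -1.75 for the class II members. Between irradiated hosts 3 of 15 were lower in TNFR KO (7.43% of all tested genes; median -0.46). After irradiation 3 of 15 tested rose in WT hosts (2.25% of all tested genes; Cd14, C1qb and Tyrobp) and 1, Csf1r, fell in TNFR KO hosts (0.485% of all tested genes), with medians of 0.81 and -0.48. The lipopolysaccharide co-receptor Cd14 had pool means of 416 and 2302 in WT and 437 and 532 in TNFR KO, each untreated then irradiated. The summed signal of the 16 markers was 8942 and 9006 in WT untreated, 17134 and 17655 in WT irradiated, 18035 and 18725 in TNFR KO untreated and 12152 and 12652 in TNFR KO irradiated tumours. The summed signal of the 7 class II members ranged from 6068 to 6158 in WT untreated, 15537 to 16319 in WT irradiated, 6176 to 6591 in TNFR KO untreated and 5316 to 5486 in TNFR KO irradiated tumours. Such sums are carried by the brightest probe sets. In untreated tumours 6 of 15 macrophage markers were higher in TNFR KO hosts (2.06% of all tested genes were called higher; median 0.91), among them Csf1r at 1.60 ± 0.05 and C1qa at 1.20 ± 0.06; Cd14 (0.07), Mrc1 (0.07) and Mertk (-0.51) were not called. The part of macrophages in the class II result was not tested.

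Markers of all leukocytes had 2 of 4 higher after irradiation in WT (2.25% of all tested genes) and 0 called in TNFR KO hosts (medians 0.90 and -0.40). Ptprc, the leukocyte surface protein CD45, had pool means of 158 and 252 in WT and 126 and 98.3 in TNFR KO, each untreated then irradiated. Of the neutrophil markers, 3 of 3 tested rose in WT hosts (2.25% of all tested genes; median 2.66) and 0 were called in TNFR KO hosts (1 at an unadjusted p under 0.05 in limma). TNFR KO minus WT radiation effects were called below 0 for 2 of 4 leukocyte and 2 of 3 neutrophil markers (2.05% of all tested genes). Between irradiated hosts 2 of 4 leukocyte and 3 of 3 neutrophil markers were lower in TNFR KO (7.43% of all tested genes). Between untreated hosts 1 of 4 leukocyte markers, Laptm5, was higher in TNFR KO (2.06% of all tested genes). There 2 of 3 neutrophil markers were already lower (6.25% of all tested genes). The neutrophil sum over 4 genes went from between 3495 and 3868 to between 23008 and 23782 in WT and from between 862 and 904 to between 1014 and 1046 in TNFR KO hosts. Most dendritic and B cell markers were too dim to test. Of 11 dendritic markers matched, 3 were tested (Itgax, Zbtb46 and Batf3), and 0 were called in any single-pool comparison (0 at an unadjusted p under 0.05 in limma). The dendritic sum ranged from 586 to 660.1 in WT untreated, 742 to 946 in WT irradiated, 701 to 810 in TNFR KO untreated and 844 to 1086 in TNFR KO irradiated tumours. Of 7 B cell markers matched, Blnk and Cd22 were tested and 1, Blnk, was called, as higher in untreated TNFR KO tumours (2.06% of all tested genes). The B cell sum ranged from 239 to 257 and 356 to 409 in WT, and from 388 to 459 and 476 to 491 in TNFR KO, each untreated then irradiated. Of 8 T and NK cell markers matched, Cd8a alone was tested and was not called in any single-pool comparison. The others were too dim over the 8 arrays, among them Gzmb, which was brighter in WT hosts. Gzmb read 95.4 and 80.8 in WT untreated and 170.9 and 175.8 in WT irradiated tumours. In TNFR KO tumours it read 17.4 and 37.1 untreated and 23.5 and 65.9 irradiated. The T and NK cell sum ranged from 459 to 499 and 665 to 807 in WT, and from 405 to 475 and 449 to 632 in TNFR KO, each untreated then irradiated. Melanocyte genes of the tumour cells had 0 of 8 called after irradiation in either host (6 and 3 at an unadjusted p under 0.05 in limma). Between the untreated pools 1 of 8, Mitf, was lower in TNFR KO hosts (-1.03 ± 0.06, 6.25% of all tested genes called lower). Between the irradiated pools 0 of 8 were called (7.43% of all tested genes called lower), with Mitf at -0.74 ± 0.06.

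**Figure D4:**
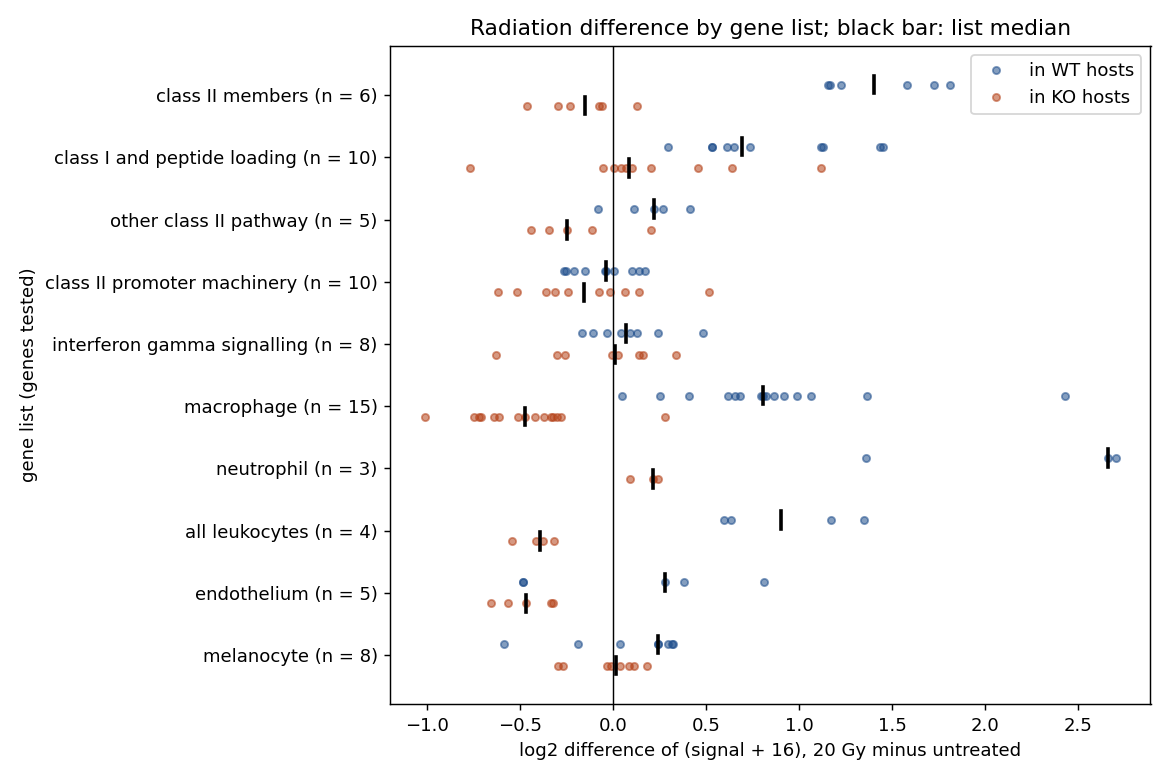
Log2 difference of (signal + 16), 20 Gy minus untreated, for the tested genes of 10 lists in WT (upper row, blue) and TNFR KO hosts (lower row, red); points are genes and black bars list medians. The class II members have medians of 1.40 (WT) and -0.15 (TNFR KO), macrophage markers at 0.81 and -0.48.

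The genes whose pattern over the 4 pools was most like that of the members were found by the root mean square difference to the members' median profile, each gene centred on its own mean log2 signal. With 4 pools this is a description. The 10 nearest genes were Malat1, Il1rn, Ccr1, Il18bp, Tnfaip3, Mmp9, Csf3r, Arg1, Cd53 and Nfkbiz, at distances of 0.05 to 0.15, where the members themselves lay at 0.10 to 0.15 and Ctss at 0.29. Malat1, the nearest at 0.05, read 2259 and 1491.5 in WT untreated and 4881 and 5185 in WT irradiated tumours. In TNFR KO hosts it read 2051 and 1733.5 untreated and 1673.5 and 1722 irradiated. Il1rn, the interleukin 1 receptor antagonist, read 307 and 304 in WT untreated, 1019 and 1004 in WT irradiated, 304 and 305 in TNFR KO untreated and 265 and 266.5 in TNFR KO irradiated tumours. Tnfaip3, the NF-kB inhibitor A20, read 198 and 184, 526.5 and 553, 216.5 and 220.2, and 189.6 and 189.5. In each of these genes, the irradiated WT arrays were the highest, which follows from their choice by pattern.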

How the data were processed

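The authors deposited MAS5 signal intensity for 8 arrays on a linear scale; the submitters' processing notes list MAS5. All 8 arrays had a 2%-trimmed mean of 500, the mark of scaling to a common target. From these, log2(signal + 16) was computed. Of 45037 probe sets other than controls, 34945 named 1 gene in the annotation supplied, 932 several and 9160 none. The brightest single-gene probe set stood for each of 18193 genes, and tests were run on the 11345 genes at or above the median of mean log2 values of those 45037 probe sets.

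limma 3.58.1 in R 4.3.3 fitted single-pool contrasts on 8 arrays (4 residual degrees of freedom; call at adjusted p under 0.05 and 2-fold), and host and radiation on 4 pool means (1 residual degree of freedom; adjusted p under 0.05). All tests were two-sided. On simulated data for the host comparison of irradiated pools with 11345 genes, 88% of 100 genes lowered by 1.5 and 96% of 100 lowered by 2 on the log2 scale were recovered, with 2 false calls; this holds array noise only. The number of arrays limits precision.

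The members and gene lists were chosen with earlier results of these data known. Genes named beyond the members were the 4 with the largest host difference after irradiation in each list, a few fixed genes (Ifng, Irf1, Nlrc5, Rfx5, H2-Ea, Ptprc), and the 10 nearest by pattern; only part of these is printed. Csf1r, C1qa, C1qb, Tap1, Tapbp and Gzmb were named after their values were seen. Alternatives were other normalizations, pseudocounts, filters, probe set rules, fold thresholds, limma-trend, the replicate block and leaving out each array.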

Additional observations from a re-analysis of the deposited data

Results flagged for a closer look

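The radiation effect differed between the 2 hosts in each of the 6 tested class II members, by the test of the difference itself in limma against duplicate arrays. As TNFR KO minus WT on the log2 scale it was -1.88 for Cd74 (adjusted p = 0.00172), -1.63 for Ctss (adjusted p = 0.00683) and -1.29 for H2-Aa (adjusted p = 0.00282). It was -1.03 for H2-Ab1 (adjusted p = 0.0185), -1.96 for H2-DMa (adjusted p = 0.00384) and -1.89 for H2-Eb1 (adjusted p = 0.00267). In all 6, both irradiated WT arrays were above both untreated WT arrays. With 1 pool per group, variation between animals was not measured.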

How the results depend on the processing

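Irradiated WT tumours against untreated WT and against irradiated TNFR KO tumours called 6 to 6 of 6 members when an array was left out, and the difference between radiation effects 5 to 6; a pool left with 1 array is then assumed to vary like the other pools, so this says little on stability. Centring arrays on the median left 3 called after irradiation in WT, where the median of all tested genes moved from -0.02 to -0.28. The shares of all genes in this paragraph count calls in either direction. The host difference over both treatments called 4 members in the pool fit (30.9% of all genes). The count fell to 0 with quantile normalization (23.7%), to 1 with no pseudocount (25.9%) and to 2 in the 8-array fit with the replicate block (53.8%). It was 0 to 1 when an array was left out. With no filter it was 0, as 0 of all 18193 genes were called. In other settings it rose. It was 5 with arrays centred on the median (22.8%), a pseudocount of 64 (36.7%) or the mean of probe sets (30.5%), and 6 with limma-trend (39.4%). Radiation over both hosts, 0 members, became 2 with a pseudocount of 64 (4.49% of all genes called), 4 with a filter at the 75th percentile (5.25%) and 5 with limma-trend (6.88%). In the main fit it was 0 to 0 when an array was left out, and limma-trend was not run with an array left out. Without a fold threshold 3 members passed between untreated hosts (50.2% of all genes) and 2 after irradiation in TNFR KO hosts (23.8%). With the 2-fold threshold, both were 0 with all arrays and 0 to 0 when an array was left out. Apart from fewer or more genes tested under the filters, the causes were not tested. No called member changed direction in any setting run. Arrays with the same replicate number did not deviate together (correlations of -0.032 to 0.052), and the replicate block left the single-pool counts at 6, 6, 6, 0 and 0. Ciita lay below the filter, at a signal of 68.8.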

Other observations

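Ciita had 2 further probe sets, both dimmer than the one described. One read 5.9 and 6.6 in WT untreated, 44.3 and 6.1 in WT irradiated, 20.6 and 25.2 in TNFR KO untreated and 26.1 and 12.1 in TNFR KO irradiated tumours, so that the 2 irradiated WT arrays of the same RNA differed most. The other read between 1.2 and 8.0 on all 8 arrays. A second, dim probe set of H2-DMa read 8.0 and 4.0, 42.6 and 29.0, 5.3 and 3.4, and 5.3 and 2.6 in the same order of pools, with the irradiated WT arrays again the highest.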
